A study of Rattus norvegicus with 19 samples.

Results

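S100A genes encode small calcium-binding proteins, and the 8 described here are S100a1, S100a4, S100a6, S100a8, S100a9, S100a10, S100a11 and S100a13. They were chosen by symbol, and all 8 were found among the 17455 gene symbols of the count files. Whole counts of RNA-seq reads per gene were available for 19 libraries from rat left ventricle, each labelled as a separate biological replicate. The comparisons ask which of these transcripts differed in a rat model of heart failure with preserved ejection fraction (HFpEF), and which differed after treatment.

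The rats were Sprague-Dawley, wild type, and 24 weeks old at the start, and every sample is labelled male. The model was made with a diet giving 60% of calories as fat and with L-NAME, which blocks nitric oxide synthesis, in drinking water at 0.5 g/L. Groups at week 5 were control 5w (n = 3), without L-NAME, and HFpEF (n = 3). Groups at week 9 were control 9w (n = 3) and model rats that then received PBS (called untreated, n = 3), EMPA (n = 2), PFD (n = 2) or EMPA + PFD (n = 3) for 4 weeks. EMPA is empagliflozin, an inhibitor of the glucose transporter SGLT2, given by gavage at 0.35 g/kg per day. PFD is pirfenidone, an antifibrotic drug, given at 0.3 g/kg per day. Nothing here separates L-NAME from the diet, because no group received only 1 of them.

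Total counts per library ran from 7430539 to 13017754, with a median of 9951011. They were 7430539 and 8061054 in EMPA and 11628931 to 13017754 in control 5w, and the other groups overlapped these ranges or lay between them. A count of 3 corresponded to 0.215 to 0.400 CPM (counts scaled to a common library size after TMM normalisation), and levels below are in that unit. Intervals and floors cover counting error only.

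S100 proteins carry EF-hand motifs that bind calcium, and they mostly act as dimers that change shape on binding it and then attach to target proteins. In heart, S100A1 is the form known from cardiomyocytes, where it binds the ryanodine receptor and the calcium pump of the sarcoplasmic reticulum. S100A4, S100A6, S100A10, S100A11 and S100A13 are widely made by fibroblasts, vessels and other stromal cells, while S100A8 and S100A9 form calprotectin, an abundant protein of neutrophils and some monocytes.

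Several libraries stood apart from others of their group. The Y-linked gene Eif2s3y had 0 counts in 7 libraries, namely HFpEF 1 and 3, all 3 untreated and both PFD libraries, and at least 613 counts in the other 12. Since every sample is labelled male, those 7 libraries went against their label. HFpEF was the one group that held libraries of both kinds. A term for Eif2s3y in the model therefore rests on HFpEF 2 against HFpEF 1 and 3. Presence of Eif2s3y and group cannot be told apart in untreated against control 9w, EMPA + PFD against untreated or EMPA against untreated, while in PFD against untreated it did not differ. RT1-CE16, a class I major histocompatibility gene, had at most 3 counts in control 5w, HFpEF and EMPA and at least 308 in every other library, so EMPA differed in it from the other groups of week 9. EMPA + PFD against HFpEF sets week 9 beside week 5, so treatment, week and RT1-CE16 cannot be told apart in any value of that comparison. Myl4, the atrial myosin light chain, reached 19668 counts in untreated 2, against 41 and 46 in untreated 1 and 3. It also reached 13853 counts in control 9w 3 and 2702 in control 9w 1, against 24 in control 9w 2.

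Marker genes of cell types differed between libraries of one group as well. The markers fixed for the labelled tissue, Myh6, Tnnt2, Myl2 and Myl3, were detected in every library, though Myh6 and Tnnt2 are also made in atria and do not show ventricle by themselves. Of the cardiomyocyte markers, none of the 8 found in the files was at 0 in any library, and Ttn, the other one listed, was not analysed here. The summed cardiomyocyte markers, of which Myh6 had the highest mean over the 19 libraries, were 86006, 34728 and 38941 CPM in control 5w 1, 2 and 3 and 12368, 24822 and 36659.9 CPM in HFpEF 1, 2 and 3. They were 36929, 44539.5 and 39742 CPM in control 9w, 72585, 19690.5 and 62674 CPM in untreated, 48046 and 37024 CPM in EMPA, 67206 and 76655 CPM in PFD and 71242, 94943 and 79673 CPM in EMPA + PFD. HFpEF 1 and untreated 2 had the lowest sums of all, and control 5w 1 lay far above its 2 replicates. The 8 fibroblast markers, of which Col3a1 had the highest mean over all libraries, summed to 5156, 42820.4 and 34591 CPM in control 5w, 17643, 11359.7 and 13264 CPM in HFpEF and 4927, 3546 and 5069 CPM in control 9w. They summed to 4578, 9658 and 4315 CPM in untreated, 4262 and 8475 CPM in EMPA, 4899 and 4494 CPM in PFD and 5181, 2328 and 4464 CPM in EMPA + PFD. Control 5w 2 and 3 thus stood above all other libraries in these markers. In bulk tissue, fewer cells of a type and less RNA per cell cannot be told apart, and the part of cell composition in the differences given below was not tested.

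S100a1, the cardiomyocyte member, was lowest in HFpEF and highest in the 2 groups that received PFD. It stood at 29.8, 17.6 and 21.2 CPM in control 5w and at 13.9, 20.1 and 22.1 CPM in HFpEF. At week 9 it stood at 26.1, 27.2 and 30.8 CPM in control 9w, 38.0, 30.4 and 31.7 CPM in untreated and 39.7 and 28.7 CPM in EMPA. With PFD it reached 41.8 and 42.5 CPM, and with EMPA + PFD 42.3, 38.1 and 41.2 CPM. Every EMPA + PFD library lay above every HFpEF, control 5w and control 9w library, whereas each group overlapped its neighbour in the order of means. S100a1 rose in EMPA + PFD against HFpEF (log2 fold change 1.12, SE 0.20, edgeR adjusted p = 0.000857), higher in 3 of 3 libraries. It also rose against control 9w by 0.53 on the log2 scale (SE 0.20, edgeR adjusted p = 0.0475), a call that ended when any library of either group was left out (edgeR adjusted p from 0.0566 to 0.136) and under 11 of its 16 alternatives in all (up to 0.199). HFpEF against control 5w gave a log2 fold change of -0.29 (SE 0.20, edgeR adjusted p = 0.299), and EMPA + PFD against untreated gave 0.28 (SE 0.19, edgeR adjusted p = 0.318). Neither passed. The EMPA + PFD libraries all lay above the untreated ones, but groups did not overlap for 37.4% of all genes tested in that comparison. The same share was 54.7% in EMPA + PFD against HFpEF and 51.2% against control 9w.

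Known partners of S100A1 in the myocyte are encoded by Ryr2, Atp2a2 and Pln. Ryr2, the ryanodine receptor through which calcium leaves the sarcoplasmic reticulum, had 1199.6 ± 156 CPM (SD, n = 3) in control 5w and 508 ± 236 CPM (SD, n = 3) in HFpEF. It fell in HFpEF (log2 fold change -1.24, SE 0.33, edgeR adjusted p = 0.0194), a call lost without control 5w 1, HFpEF 1 or HFpEF 2 (edgeR adjusted p from 0.0558 to 0.0706). Ryr2 rose in EMPA + PFD (1979, 3469.9 and 2389.8 CPM) against untreated (1580.5, 670.4 and 1408 CPM, lowest in untreated 2), with a log2 fold change of 1.10 (SE 0.33, edgeR adjusted p = 0.0447). Without untreated 2 this was 0.81 (edgeR adjusted p = 0.169), and the call was also lost without untreated 3, EMPA + PFD 2 or EMPA + PFD 3 (edgeR adjusted p from 0.0704 to 0.177). Atp2a2, the calcium pump that refills the store, fell in HFpEF as well (-1.70, edgeR adjusted p = 0.0259), a call lost without the same libraries, while Pln, which encodes phospholamban, the inhibitor of that pump, did not pass (-1.32, edgeR adjusted p = 0.0756). All 3 genes rose in EMPA + PFD against HFpEF and against control 9w, with medians of 2.36 and 1.40 on the log2 scale. Against control 9w the Pln call was lost without any 1 library of either group (edgeR adjusted p from 0.0613 to 0.117), and that of Atp2a2 without control 9w 1, control 9w 2 or EMPA + PFD 2. Of all genes tested 22.3% and 17.1% rose in these comparisons, with medians of -0.086 and -0.078. Of the 8 cardiomyocyte markers 6 and 2 rose there, with medians of 1.53 and 1.10. Against untreated, Atp2a2 (1.25, edgeR adjusted p = 0.0934) and Pln (0.92, edgeR adjusted p = 0.210) did not pass. Atp2a2 was the most abundant of the 3, at 2022 ± 1076 CPM (SD, n = 3) in HFpEF and 14189 ± 4110.3 CPM (SD, n = 3) in EMPA + PFD.

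**Figure D1:**
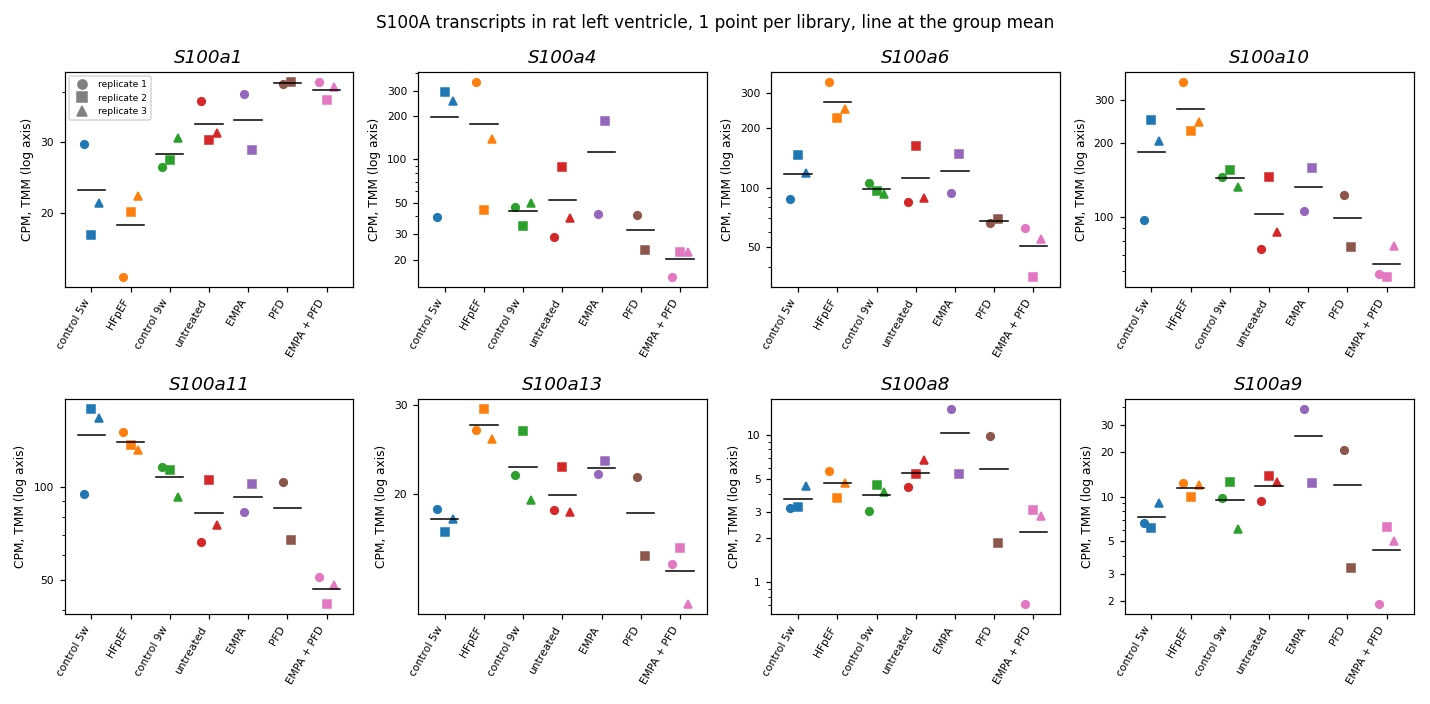
Level of each S100A transcript in 19 left ventricle libraries, in CPM after TMM normalisation on a log axis, by group, with 1 point per library and a line at the group mean. S100a6 lies between 223 and 342 CPM in HFpEF and between 35.5 and 62.6 CPM in EMPA + PFD, and S100a4 ranges from 39.5 to 296 CPM within control 5w.

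S100a6, calcyclin, a member made by many stromal cells and tied to proliferation, had the larger of the 2 rises in HFpEF. It stood at 88.1, 146 and 119 CPM in control 5w and at 342, 223 and 248 CPM in HFpEF. At week 9 it stood at 106, 96.3 and 92.6 CPM in control 9w, 84.6, 162 and 89.2 CPM in untreated and 94.2 and 148 CPM in EMPA. It was 66.5 and 69.5 CPM in PFD and 62.6, 35.5 and 55.0 CPM in EMPA + PFD. The 3 HFpEF libraries were above all other 16, and the 3 EMPA + PFD libraries were below all others. Untreated 2 stood apart, close to the level of EMPA 2 and above the 2 other untreated libraries. S100a6 rose in HFpEF against control 5w (log2 fold change 1.20, SE 0.28, edgeR adjusted p = 0.0110). The call ended with a term for Eif2s3y in the model (0.92, edgeR adjusted p = 0.122, against at most 0.0441 under the other alternatives). That value in effect compares HFpEF 2 alone with control 5w, so it cannot separate Eif2s3y from that library.

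After treatment S100a6 fell in EMPA + PFD against untreated (log2 fold change -1.13, SE 0.28, edgeR adjusted p = 0.0248). Without untreated 2 the value was -0.77 (edgeR adjusted p = 0.128), and the groups still did not overlap. With all libraries kept, groups did not overlap for 37.4% of all genes tested. The call was also lost without EMPA + PFD 2 (-0.92, edgeR adjusted p = 0.123) and without EMPA + PFD 3 (edgeR adjusted p = 0.0696). A term for Eif2s3y gave -0.73 (edgeR adjusted p = 0.396). That value carries over the difference of HFpEF 2 from HFpEF 1 and 3, so it cannot decide the part of Eif2s3y here. All untreated libraries lacked that gene and all EMPA + PFD libraries had it. Over all its alternatives this adjusted p ran from 0.00279 to 0.396. Against HFpEF the fall was larger (-2.41, SE 0.28, edgeR adjusted p = 0.000176) and passed under each of its 16 alternatives, while week differs there too, and untreated against HFpEF gave -1.28 (edgeR adjusted p = 0.0621). Against control 9w it was -0.94 (SE 0.28, edgeR adjusted p = 0.0194), and this call ended without control 9w 1 (edgeR adjusted p = 0.0583) and without EMPA + PFD 2 (edgeR adjusted p = 0.0980). The same call also ended without the 3 libraries with over 1000 Myl4 counts, which leaves 1 control 9w library.

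S100a10 and S100a11 varied in a like way from library to library (Pearson r = 0.93, Spearman rho = 0.94 across 19 libraries of 7 groups, and r = 0.93 after each group's mean was removed). S100A10 does not bind calcium and forms a tetramer with annexin A2 at the plasma membrane, and S100A11 binds annexin A1. S100a10 stood at 96.7, 249 and 204 CPM in control 5w, 357, 225 and 244 CPM in HFpEF and 146, 155 and 132 CPM in control 9w. It stood at 73.7, 146 and 87.0 CPM in untreated, 105 and 159 CPM in EMPA, 123 and 75.1 CPM in PFD and 58.7, 56.8 and 76.4 CPM in EMPA + PFD. Control 5w 1, untreated 1 and untreated 3 were low in their groups, and the EMPA + PFD libraries overlapped both untreated and PFD. S100a11 stood at 94.8, 179.8 and 168 CPM in control 5w, 151, 137 and 132 CPM in HFpEF and 116, 114 and 93.0 CPM in control 9w. It stood at 66.3, 105 and 75.2 CPM in untreated, 83.0 and 102 CPM in EMPA, 104 and 67.3 CPM in PFD and 50.8, 41.6 and 48.0 CPM in EMPA + PFD. Here the 3 EMPA + PFD libraries lay below all others. The RefSeq gene table lists 7 further S100a11 loci, pseudogenes or like genes, and 1 S100a10 pseudogene, so reads could have been divided between copies and both levels are uncertain to that extent.

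Neither gene passed in HFpEF against control 5w, with log2 fold changes of 0.59 for S100a10 (SE 0.33, edgeR adjusted p = 0.215) and -0.075 for S100a11 (SE 0.23, edgeR adjusted p = 0.840). S100a11 fell in EMPA + PFD against untreated (-0.81, SE 0.23, edgeR adjusted p = 0.0390). That call ended without untreated 2 (-0.60, edgeR adjusted p = 0.183), and also without untreated 3, EMPA + PFD 2 or EMPA + PFD 3 (edgeR adjusted p from 0.0684 to 0.161). With a term for Eif2s3y it was -0.76 (edgeR adjusted p = 0.296), the highest p of its 16 alternatives, of which 8 lost the call. As above, that term rests on HFpEF 2 against HFpEF 1 and 3. Against control 9w S100a11 fell by 1.20 (SE 0.23, edgeR adjusted p = 0.00232) and against HFpEF by 1.58 (SE 0.23, edgeR adjusted p = 0.000381), both passing under each of their 16 alternatives. S100a10 gave -0.68 in EMPA + PFD against untreated (SE 0.33, edgeR adjusted p = 0.170). It fell against control 9w (-1.17, edgeR adjusted p = 0.0156), a call lost without EMPA + PFD 2 (edgeR adjusted p = 0.0653), and against HFpEF (-2.11, edgeR adjusted p = 0.000569). The S100a10 call against control 9w was also lost without the 3 libraries with over 1000 Myl4 counts, which leaves 1 control 9w library.

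Among the 5 annexin and membrane partners, Anxa2, which encodes the partner of S100A10, had 589 ± 231 CPM (SD, n = 3) in control 5w, 559 ± 106 CPM (SD, n = 3) in HFpEF and 349.7 ± 36.5 CPM (SD, n = 3) in control 9w. It had 299.8 ± 80.3 CPM (SD, n = 3) in untreated, 360.0 ± 102 CPM (SD, n = 2) in EMPA, 277 ± 73.5 CPM (SD, n = 2) in PFD and 184 ± 15.2 CPM (SD, n = 3) in EMPA + PFD, and the control 5w and HFpEF libraries overlapped. It fell in EMPA + PFD against HFpEF (-1.60, SE 0.28, edgeR adjusted p = 0.00101) and against control 9w (-0.92, edgeR adjusted p = 0.0230), where Anxa6 (0.63, edgeR adjusted p = 0.00547) and Anxa11 (0.92, edgeR adjusted p = 0.00681) rose. The Anxa2 call against control 9w was lost without control 9w 2 or 3 or EMPA + PFD 1 or 2. Against untreated Anxa2 gave -0.70 (SE 0.28, edgeR adjusted p = 0.106). Anxa6 fell in HFpEF against control 5w (-0.56, edgeR adjusted p = 0.0171), a call lost without HFpEF 2. Anxa1, which encodes the partner of S100A11, fell against HFpEF (-1.97, edgeR adjusted p = 0.000594), while Anxa11 rose (0.98, edgeR adjusted p = 0.00332). The 5 genes had a median log2 fold change of -0.20 against HFpEF, with 2 falling and 1 rising, while all genes tested had -0.086, with 24.5% falling and 22.3% rising. In controls from week 5 to week 9, Anxa1 (-0.84, edgeR adjusted p = 0.0490) and Anxa6 (-0.84, edgeR adjusted p = 0.000990) fell. Ahnak rose there (0.48, edgeR adjusted p = 0.0283), while Anxa2 (-0.75, edgeR adjusted p = 0.0524) and Anxa11 (-0.29, edgeR adjusted p = 0.314) did not pass.

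S100a13, which takes part in the release of FGF1 from cells, had the smallest spread between hearts of the 8 genes, with a biological coefficient of variation of 0.137. It stood at 18.7, 16.8 and 17.8 CPM in control 5w, 26.8, 29.5 and 25.7 CPM in HFpEF and 21.8, 26.7 and 19.4 CPM in control 9w. It stood at 18.6, 22.6 and 18.3 CPM in untreated, 21.8 and 23.2 CPM in EMPA, 21.6 and 15.02 CPM in PFD and 14.4, 15.5 and 12.0 CPM in EMPA + PFD. Each HFpEF library lay above each control 5w library, and at week 9 untreated and control 9w overlapped. HFpEF and control 5w did not overlap for 37.7% of all genes tested. S100a13 rose in HFpEF against control 5w (log2 fold change 0.62, SE 0.15, edgeR adjusted p = 0.0142). Without control 5w 2 and 3, the libraries highest in fibroblast markers, the value was 0.54 and the call was lost. This left 1 control library, whose spread is taken from the other groups. The difference between the model's effect at week 9 and its effect at week 5 was -0.81 (SE 0.22, edgeR adjusted p = 0.0190), the one such difference to pass among the 8 genes. It no longer passed without control 9w 2, untreated 1 or untreated 3 (edgeR adjusted p from 0.0525 to 0.0562), nor without control 5w 2 and 3 together (-0.73).

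S100a13 fell in EMPA + PFD against HFpEF (-0.97, SE 0.16, edgeR adjusted p = 0.000554) and against control 9w (-0.69, SE 0.16, edgeR adjusted p = 0.00496), under each of 16 alternatives. Against untreated it gave -0.50 (SE 0.16, edgeR adjusted p = 0.0496), just past the threshold, and this call was lost under 12 of 16 alternatives, among them the omission of any library of the 2 groups other than untreated 1 (edgeR adjusted p from 0.0779 to 0.208). Fgf1, whose protein S100A13 binds, moved the other way. Fgf1 fell in HFpEF (-2.31, SE 0.37, edgeR adjusted p = 0.00199) and rose in EMPA + PFD (73.7, 166 and 166 CPM) against untreated (48.5, 14.2 and 36.7 CPM, lowest in untreated 2), by 2.03 (SE 0.36, edgeR adjusted p = 0.00934). Without untreated 2 the rise was 1.67 (edgeR adjusted p = 0.0326), and it passed without any 1 library of the 2 groups (edgeR adjusted p up to 0.0476).

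S100a4, also called fibroblast-specific protein although it is found in several cell types, varied more within groups than the other members, with a biological coefficient of variation of 0.604, higher than in 96.1% of the genes tested. It stood at 39.5, 296 and 255 CPM in control 5w and at 349, 44.7 and 138 CPM in HFpEF. At week 9 it stood at 46.4, 34.6 and 49.7 CPM in control 9w, 28.8, 89.1 and 38.8 CPM in untreated and 41.7 and 184 CPM in EMPA. It was 41.1 and 23.4 CPM in PFD and 15.1, 22.6 and 22.5 CPM in EMPA + PFD. High libraries were control 5w 2 and 3, HFpEF 1 and 3, EMPA 2 and untreated 2, each above a much lower library of its own group. The fibroblast sums were likewise high in control 5w 2 and 3, and all 4 other libraries named here had higher sums than the lowest library of their group.

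S100a4 fell from control 5w to control 9w (log2 fold change -2.18, SE 0.74, edgeR adjusted p = 0.0405), but control 5w 1 lay among the control 9w libraries. Without control 5w 2 and 3 the difference turned to 0.13, with 1 control 5w library left, whose spread is taken from the other groups. The call was also lost on leaving out control 5w 2, control 5w 3 or any 1 control 9w library (edgeR adjusted p from 0.0766 to 0.131). It was lost with the replicate block as well, and without the 3 libraries with over 1000 Myl4 counts, which leaves 1 control 9w library. S100a4 fell in EMPA + PFD against HFpEF (-3.14, SE 0.75, edgeR adjusted p = 0.00668), where every EMPA + PFD library was below every HFpEF library. These groups did not overlap for 54.7% of all genes tested. The size of the S100a4 fall rests in large part on HFpEF 1 (349 CPM, against 44.7 and 138 CPM in HFpEF 2 and 3). With a term for Eif2s3y the value was -1.16 (edgeR adjusted p = 0.359). That value in effect compares EMPA + PFD with HFpEF 2 alone, the lowest HFpEF library (44.7 CPM), so it cannot separate Eif2s3y from that library. Against untreated it gave -1.38 (SE 0.76, edgeR adjusted p = 0.221), and HFpEF against control 5w gave -0.15 (SE 0.73, edgeR adjusted p = 0.899).

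The RefSeq table of the GRCr8 assembly holds promoter windows of 300 bases for 5 of the 8 genes, S100a4, S100a6, S100a9, S100a11 and S100a13, and those of S100a4, S100a6 and S100a11 are shown because, of the 4 stromal genes among them, these had the larger falls in EMPA + PFD against HFpEF. Motifs were sought on both strands, namely TGANTCA (AP-1), GGGCGG (GC box) and TATAAA, which 7.33%, 33.1% and 14.2% of the 33469 promoters in that table hold. Capitals mark the matches, and matches of 1 motif may overlap each other. The windows lie on the plus strand of GRCr8 at chr2:178388279-178388578 (S100a4), chr2:178398287-178398586 (S100a6) and chr2:181874882-181875181 (S100a11).
S100a4: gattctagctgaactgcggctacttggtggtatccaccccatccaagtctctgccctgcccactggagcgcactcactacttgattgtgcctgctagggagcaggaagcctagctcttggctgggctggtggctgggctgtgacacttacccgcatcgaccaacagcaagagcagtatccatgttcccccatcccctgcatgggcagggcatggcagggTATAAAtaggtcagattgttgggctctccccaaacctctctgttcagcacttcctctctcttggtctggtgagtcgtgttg
S100a6: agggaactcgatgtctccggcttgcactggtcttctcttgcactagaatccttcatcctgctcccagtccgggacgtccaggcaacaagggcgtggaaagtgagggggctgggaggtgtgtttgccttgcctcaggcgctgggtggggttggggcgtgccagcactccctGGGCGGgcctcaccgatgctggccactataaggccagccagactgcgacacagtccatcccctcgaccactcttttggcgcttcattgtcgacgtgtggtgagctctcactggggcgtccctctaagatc
S100a11: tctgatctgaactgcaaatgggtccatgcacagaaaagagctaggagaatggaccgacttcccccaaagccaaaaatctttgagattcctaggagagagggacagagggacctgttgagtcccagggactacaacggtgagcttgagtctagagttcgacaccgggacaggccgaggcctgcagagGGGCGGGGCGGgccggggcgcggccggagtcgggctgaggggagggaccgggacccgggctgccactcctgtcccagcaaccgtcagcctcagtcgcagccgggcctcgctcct
S100a4 has 1 TATAAA match and S100a6 has 1 GC box, while S100a11 has 2 GC boxes that share a base. S100a9 has 1 TATAAA match and S100a13 has 1 GC box. None of the 5 windows holds TGANTCA, which says only that these letters are not in them.

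S100a8 and S100a9, the neutrophil members, were scarce in all groups, at 6 to 113 counts and 16 to 291 counts per library. S100a8 stood at 3.20, 3.26 and 4.54 CPM in control 5w, 5.74, 3.76 and 4.73 CPM in HFpEF and 3.05, 4.55 and 4.09 CPM in control 9w. It stood at 4.43, 5.44 and 6.74 CPM in untreated, 15.05 and 5.47 CPM in EMPA, 9.86 and 1.85 CPM in PFD and 0.710, 3.11 and 2.82 CPM in EMPA + PFD. EMPA 1 and PFD 1 were the highest libraries, and each was well above its replicate. S100a9 stood at 6.69, 6.13 and 8.99 CPM in control 5w, 12.3, 9.90 and 12.0 CPM in HFpEF and 9.70, 12.5 and 6.08 CPM in control 9w. It stood at 9.28, 13.7 and 12.5 CPM in untreated, 38.8 and 12.4 CPM in EMPA, 20.5 and 3.29 CPM in PFD and 1.89, 6.22 and 5.01 CPM in EMPA + PFD. Both genes were highest in EMPA 1 and lowest in EMPA + PFD 1, and they varied together (Pearson r = 0.96, Spearman rho = 0.89 across 19 libraries, and r = 0.93 after each group's mean was removed).

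Neither passed the edgeR test in any of the 11 comparisons. The nearest was S100a9 in EMPA + PFD against HFpEF (-1.38, SE 0.57, edgeR adjusted p = 0.0587), which passed in DESeq2, with upper quartile normalisation and with the compared groups alone. S100a8 there gave -1.10 (SE 0.56, edgeR adjusted p = 0.119). HFpEF against control 5w gave 0.37 for S100a8 (SE 0.54) and 0.65 for S100a9 (SE 0.54). Neither passed. For S100a9 the 3 HFpEF libraries lay above the 3 control 5w libraries, but these groups did not overlap for 37.7% of all genes tested. S100a8 made up a median of 32.3% of the summed counts of the pair, from 23.9% (Clopper-Pearson 95% interval 16.4 to 32.8) in control 9w 1 to 40.2% (30.6 to 50.4) in control 9w 3. The sum itself ran from 22 counts in EMPA + PFD 1 to 404 counts in EMPA 1, where the share was 27.3% (10.7 to 50.2) and 28.0% (23.6 to 32.6).

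Of 13 neutrophil markers 5 were abundant enough to test. Lcn2, the one with the highest mean level and also made by other cells, rose in HFpEF against control 5w (1.19, edgeR adjusted p = 0.0178), as 1 of those 5, where 9.83% of all genes rose. It was higher still in control 9w (37.1, 38.2 and 31.2 CPM) than in HFpEF (21.2, 20.4 and 25.8 CPM). The granule genes of immature neutrophils were at or near 0, with Prtn3 and Ctsg at 0 counts in all 19 libraries and Camp, Elane, Ltf, Mpo and Ngp at no more than 8 in any. Mmp8, a collagenase stored in neutrophil granules, was the gene outside the family with the highest Pearson r to S100a8 (r = 0.83, Spearman rho = 0.86 across 19 libraries) and to S100a9 (r = 0.81, rho = 0.76), though by rho Abca4 (0.81) was closest to S100a9. Mmp8 had 33 counts in EMPA 1 and 20 in PFD 1, against 9 and 3 in their replicates, and 2 to 34 in the other libraries, with 34 in HFpEF 1. Mmp9, by contrast, had 468 counts in EMPA 2 and at most 12 elsewhere, so the neutrophil sum of EMPA 2 (82.5 CPM, against 34.0 in EMPA 1) did not follow S100a8 and S100a9. The sums in the other groups were 17.7, 16.8 and 17.3 CPM in control 5w, 36.3, 26.4 and 35.9 CPM in HFpEF, 42.8, 47.0 and 36.9 CPM in control 9w, 23.7, 35.6 and 31.5 CPM in untreated, 42.4 and 22.3 CPM in PFD and 10.5, 25.6 and 24.8 CPM in EMPA + PFD.

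Extracellular S100 proteins bind receptors on immune and vascular cells. Ager, the receptor for advanced glycation end products, had 14.2 ± 3.83 CPM (SD, n = 3) in control 5w, 20.6 ± 9.82 CPM (SD, n = 3) in HFpEF and 22.9 ± 6.10 CPM (SD, n = 3) in control 9w. It had 23.9 ± 4.15 CPM (SD, n = 3) in untreated, 25.6 ± 3.28 CPM (SD, n = 2) in EMPA, 18.1 ± 0.923 CPM (SD, n = 2) in PFD and 13.6 ± 4.18 CPM (SD, n = 3) in EMPA + PFD, and passed in none of the 11 comparisons. Of Ager, Tlr4, Bsg and the adaptor Myd88, 1 rose and 1 fell in HFpEF against control 5w, where 9.83% of all genes rose and 10.2% fell, Myd88 at 0.53 (edgeR adjusted p = 0.0481) and Bsg, the most abundant of the 4, at -0.99 (edgeR adjusted p = 0.0191). The Myd88 call was lost without any 1 library but control 5w 2, and that of Bsg without control 5w 1, HFpEF 1 or HFpEF 2. Tlr4, which calprotectin engages, fell in EMPA + PFD against HFpEF (-1.32, edgeR adjusted p = 0.00380), as did Myd88 (-0.90, edgeR adjusted p = 0.00170), while Bsg rose (0.84, edgeR adjusted p = 0.0178), a call lost without HFpEF 1 or HFpEF 2. So 2 of these 4 fell and 1 rose, where 24.5% of all genes fell and 22.3% rose. Week differs in that comparison too. In controls from week 5 to week 9, Tlr4 (-0.97, edgeR adjusted p = 0.0229) and Bsg (-0.87, edgeR adjusted p = 0.0201) fell, while Myd88 did not pass (-0.066, edgeR adjusted p = 0.800). Over the whole list of 17 partners, 15 were tested. In EMPA + PFD against untreated they had a median of 0.23, and 2 of them rose, while all genes tested had a median of -0.032, and 6.6% rose. In controls from week 5 to week 9, 2 of the 15 rose and 5 fell, where 17.3% of all genes rose and 17.2% fell. Among these, Fgf1 fell (-1.06, edgeR adjusted p = 0.0376) and Sugt1 rose (0.37, edgeR adjusted p = 0.0237). For the difference of the model's effect between weeks, 5 rose and 1 fell, where 9.76% and 10.2% of all genes did.

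Genes most like the other members, by Pearson r across the 19 libraries, were Smyd4, Rd3l and Zfand5 for S100a1 (r = 0.95, 0.94 and 0.92) and Efemp2, Col16a1 and Slc41a2 for S100a4 (r = 0.98, 0.96 and 0.96). Cd302, Cyba and Pip4k2a were most like S100a6 (each r = 0.96), and Clic1, Arpc1b and Arpc3 most like S100a10 (r = 0.98, 0.98 and 0.97). S100a11 was followed by Clic1, Farp1 and Dbn1 (r = 0.97, 0.96 and 0.96), and S100a13 by Fau, Rpl28 and Bin3 (r = 0.93, 0.92 and 0.92). S100a8 and S100a9 were also followed by Cenps, then Cxcr2 and Csf3r respectively (r from 0.77 to 0.80). Spearman rho for these genes ran from 0.705 to 0.982. Against the summed cardiomyocyte markers, r was -0.89 (rho -0.93) for S100a6, -0.86 (rho -0.88) for S100a10, -0.73 (rho -0.83) for S100a11, -0.69 (rho -0.69) for S100a13 and 0.79 (rho 0.77) for S100a1. S100a4 had r = 0.87 (rho 0.76) to the fibroblast sum and -0.73 (rho -0.84) to the cardiomyocyte sum. To the fibroblast sum, r was also 0.79 for S100a11, 0.78 for S100a10, 0.70 for S100a6, 0.22 for S100a13 and -0.78 for S100a1. The macrophage and monocyte sum gave r of 0.76 for S100a4 and S100a10, 0.73 for S100a6, 0.69 for S100a11, 0.31 for S100a13 and -0.76 for S100a1. With the lymphocyte sum r was 0.73 for S100a6, 0.51 for S100a13, 0.50 for S100a10, 0.42 for S100a11, 0.41 for S100a4 and -0.45 for S100a1. So r does not single out the fibroblast sum for these members. S100a8 and S100a9 had r = 0.61 (rho 0.54) and 0.64 (rho 0.65) to the neutrophil sum, and S100a13 had 0.60 (rho 0.70). To the adipocyte sum, which was at most 5.44 CPM, r was 0.65 (rho 0.66) for S100a8 and 0.57 (rho 0.56) for S100a9. All these values describe 19 libraries that share 7 groups and differ in cell composition.

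Each count of members below is set beside the share of all 12388 genes tested that passed at an adjusted p under 0.05. In HFpEF against control 5w, 2 of 8 members rose and 0 fell, where 9.83% of all genes rose and 10.2% fell, and the members' median was 0.48 against 0.022 overall. In untreated against control 9w, 0 of 8 passed in edgeR (0 at an unadjusted p under 0.05, 0 in DESeq2 and 3 in limma), where 1.78% of all genes passed. From control 5w to control 9w, 1 fell and 0 rose, where 17.2% fell and 17.3% rose. Without control 5w 1, S100a1, S100a4 and S100a11 passed.

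In EMPA + PFD against untreated, 3 fell and 0 rose, where 5.52% of all genes fell and 6.6% rose, with medians of -0.97 for members and -0.032 for all genes. The 3 were S100a6, S100a11 and S100a13. The count was 0 without untreated 2, EMPA + PFD 2 or EMPA + PFD 3 and 1 without untreated 3 (unadjusted, DESeq2 and limma counts were 5, 3 and 3 with all libraries). Against control 9w, 4 fell and 1 rose, where 16.6% fell and 17.1% rose. The count was 2 without EMPA + PFD 2 and 3 without control 9w 1. Against HFpEF, 5 fell and S100a1 rose, where 24.5% fell and 22.3% rose, with medians of -1.48 and -0.086. The last 3 comparisons share the EMPA + PFD libraries, so their values are not independent of each other.

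Marker lists moved in the same comparisons, and their part in the members' values was not tested. Some Schwann markers passed as well, in EMPA + PFD against HFpEF and in HFpEF against control 5w, but the values of that list are not given here. In EMPA + PFD against HFpEF, 6 of 8 cardiomyocyte markers rose (median 1.53), while 5 of 8 fibroblast markers (-1.82), 8 of 9 macrophage and monocyte markers (-2.07), 5 of 5 lymphocyte markers (-2.29), 4 of 5 red cell markers (-2.98) and 3 of 6 smooth muscle and pericyte markers (-1.26) fell. Of 8 endothelial markers 2 fell there (-0.56) and of 5 neutrophil markers 1 fell (-1.07), near the 24.5% of all genes, and 1 of 3 mesothelium markers fell (-4.89). In EMPA + PFD against control 9w, 2 of 8 cardiomyocyte markers rose (1.10) while 7 of 8 endothelial (-1.07), 3 of 4 atrial (-7.15) and 4 of 5 red cell markers (-2.44) fell. Also 1 of 5 neutrophil (-1.04) and 1 of 3 mesothelium markers (-3.42) fell there, where 16.6% of all genes did. In EMPA + PFD against untreated, 1 of 8 endothelial markers fell (-0.73), 2 of 4 atrial markers fell (-6.73) and 1 of 5 red cell markers rose (0.10). No marker passed there in the other lists above. Their medians were 0.72 (cardiomyocyte), -0.58 (fibroblast), -0.73 (smooth muscle and pericyte), -0.71 (macrophage and monocyte), -1.07 (neutrophil), -1.44 (lymphocyte) and -1.37 (mesothelium). In HFpEF against control 5w, 4 of 8 endothelial (0.73), 2 of 5 lymphocyte (1.45), 2 of 3 mesothelium (5.08) and 1 of 5 red cell markers (0.65) rose, and 1 of 8 cardiomyocyte markers fell (-1.13). From control 5w to control 9w, 6 of 8 fibroblast markers fell (-1.82) as S100a4 did, as did 5 of 9 macrophage and monocyte markers (-1.22), while 7 of 8 endothelial markers rose (1.15).

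The macrophage and monocyte markers, of which Csf1r had the highest mean over all libraries, summed to 517, 921 and 801 CPM in control 5w, 1648, 480.5 and 1054 CPM in HFpEF and 301, 235 and 352 CPM in control 9w, and to 294, 659.9 and 334 CPM in untreated, 325 and 226 CPM in EMPA, 400.3 and 302 CPM in PFD and 215, 227 and 379 CPM in EMPA + PFD. HFpEF 1 and 3 were the highest in these. The endothelial markers, led on average by Vwf, summed to 1848, 1512 and 1738 CPM in control 5w, 1736, 3689.6 and 2908 CPM in HFpEF and 3914, 3994 and 3443 CPM in control 9w, and to 3039, 3535 and 3304 CPM in untreated, 3090.4 and 2379.7 CPM in EMPA, 2499.7 and 2671 CPM in PFD and 2168, 1830.0 and 1920.3 CPM in EMPA + PFD. Here the EMPA + PFD libraries lay below all untreated and control 9w libraries. The lymphocyte markers, led on average by Cd3g, summed to 3.58, 8.84 and 10.3 CPM in control 5w, 27.3, 18.7 and 21.8 CPM in HFpEF and 6.99, 6.395 and 4.19 CPM in control 9w, and to 16.7, 16.1 and 8.53 CPM in untreated, 14.2 and 7.17 CPM in EMPA, 5.37 and 13.7 CPM in PFD and 8.04, 3.71 and 3.87 CPM in EMPA + PFD, with the 3 HFpEF libraries above all others.

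Single drugs gave no call among the members. In EMPA against untreated 0 of 8 passed in edgeR (0 at an unadjusted p under 0.05, 0 in DESeq2 and 0 in limma), where 0.0404% of all genes passed. In PFD against untreated 0 of 8 passed in edgeR (1 at an unadjusted p under 0.05, 0 in DESeq2 and 0 in limma), where 0.00807% of all genes passed. The interaction of both drugs gave 0 of 8 in edgeR (4 at an unadjusted p under 0.05, 0 in DESeq2 and 1 in limma), where 0.00807% passed. Its values for S100a8 and S100a9 were -2.28 (SE 0.86, edgeR adjusted p = 0.468) and -2.54 (SE 0.87, edgeR adjusted p = 0.429), and they rest on EMPA and PFD groups of 2 libraries each.

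In untreated against HFpEF, hearts of the model at week 9 and at week 5, 0 of 8 passed in edgeR (6 at an unadjusted p under 0.05, 4 in DESeq2 and 6 in limma), where 0.226% of all genes passed. Without untreated 2 the count was 5, and without HFpEF 2 it was 3. S100a10 gave -1.43 (SE 0.33, edgeR adjusted p = 0.0662) and S100a1 0.84 (SE 0.20, edgeR adjusted p = 0.0662). Among marker lists there, 4 of 5 red cell markers fell (median -3.52), and the medians were 5.86 for atrial and -1.29 for macrophage and monocyte markers, of which none passed in edgeR (3 of 4 and 8 of 9 at an unadjusted p under 0.05). Their part in the members' values was not tested. For the difference of the model's effect between weeks, 1 member fell and 0 rose, where 10.2% of all genes fell and 9.76% rose. That count was 3 without untreated 2.

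**Figure D2:**
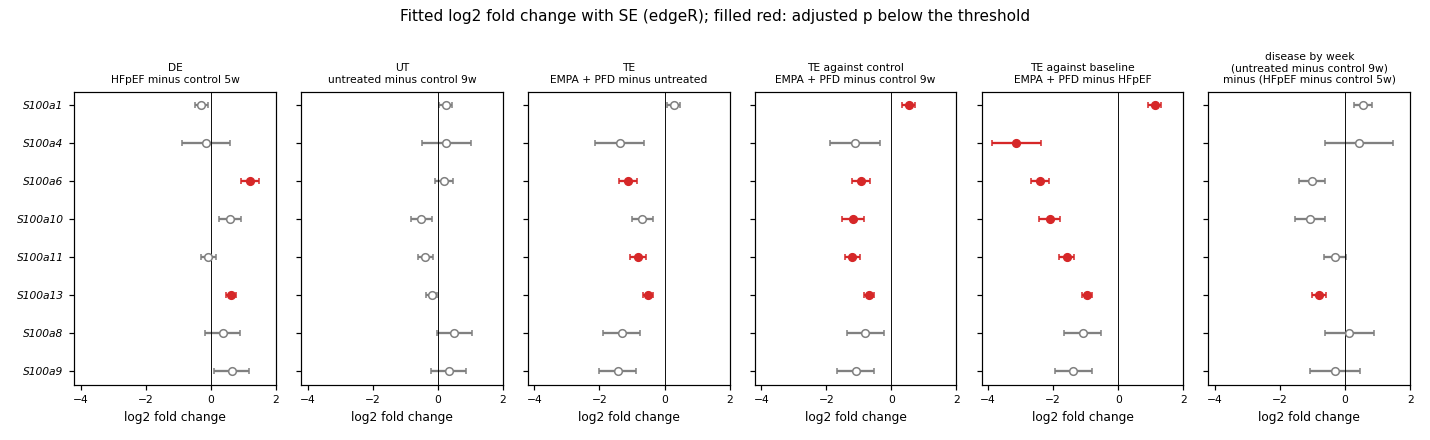
Log2 fold change of each S100A transcript in 6 comparisons, with bars of 1 SE from the edgeR fit. Filled red points passed at an adjusted p under 0.05, and in EMPA + PFD against HFpEF these are 6 of the 8 members, from -3.14 for S100a4 to 1.12 for S100a1.

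Other symbols that begin with S100 were looked for as well, 14 in all, of which 5 were tested. S100b, the form of glial and Schwann cells, had 853 counts in HFpEF 1 and 250 in EMPA 2, against 25 to 105 and 27 in the other libraries of those groups. Some Schwann markers passed in EMPA + PFD against HFpEF and in HFpEF against control 5w too. Their values are not given here, and their part in the S100b values was not tested. S100b fell in EMPA + PFD against HFpEF (-4.37, SE 1.06, edgeR adjusted p = 0.00545). The size of that fall rests largely on HFpEF 1, as S100b stood at 61.2, 2.29 and 9.38 CPM in HFpEF. It stood at 1.06, 1.08 and 1.36 CPM in EMPA + PFD. S100b did not pass against untreated (-2.51, edgeR adjusted p = 0.118) or in HFpEF against control 5w (2.67, edgeR adjusted p = 0.0586). S100a3 fell in EMPA + PFD against HFpEF too (-2.26, edgeR adjusted p = 0.0149) from at most 44 counts per library, a call lost without HFpEF 1 or EMPA + PFD 3. S100a14, an epithelial form, fell in EMPA + PFD against untreated (-1.26, edgeR adjusted p = 0.0478) at 4 to 23 counts, and against control 9w (-1.22, edgeR adjusted p = 0.0276), calls lost without most single libraries of the groups compared (5 of 6 and 4 of 6). S100a16 was more even, at 96.4 to 194 CPM, and passed in none of the 11 comparisons, while S100pbp, which encodes a binding protein of S100P, fell against control 9w (-0.60, edgeR adjusted p = 0.0161) and against HFpEF (-0.44, edgeR adjusted p = 0.0485), calls lost without 2 and 4 of 6 single libraries. So 3 of these 5 genes, counting S100pbp, which is not itself an S100 gene, fell against HFpEF, where 24.5% of all genes did.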

How the data were processed

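The paper states that RNA of 3 male hearts per group was sequenced. It adds that 1 EMPA and 1 PFD sample were left out because their data files were corrupted. For the 19 remaining left ventricle libraries the authors deposited raw read counts per gene, made with Trim Galore, HISAT2 on rn6 and HTSeq. How reads over several genes or strands were treated is not given in the sources used here. The whole-series table was identical to the per-library counts and was not used. Counts were fitted in edgeR 4.0.16 (R 4.3.3) as 1 model of 7 groups, after filterByExpr left 12388 genes, with TMM normalisation, quasi-likelihood F tests and Benjamini-Hochberg adjustment over all genes tested. A member passed at an adjusted p under 0.05. Errors of fold changes are standard errors of that fit. Floors of 3 counts and 95% Clopper-Pearson intervals cover counting error only. The code was tested on simulated data.

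The named genes were all 8 members, the other S100 symbols that could be tested, partners (up to 4 that passed per list and comparison, by absolute log2 fold change, the most abundant, and Anxa2, Ager and Ryr2 in any case), and the 3 genes outside the family with the highest Pearson r to each member. Partners that passed in the difference between weeks are given by number only, and not every partner that passed elsewhere is named. Members and lists were chosen with earlier results of these data known. Single marker genes named in the text, such as Lcn2, Mmp8 and Mmp9, were chosen after their values were seen, as were the omissions of the 3 libraries with over 1000 Myl4 counts and of the 2 highest in fibroblast markers. Alternatives were RLE and upper quartile normalisation, a lower filter, DESeq2 1.42.0, limma 3.58.1, a replicate block, a term for Eif2s3y, the compared groups alone, a 2-fold rule, and the omission of libraries. For the partners and other S100 genes that passed, only the omission of single libraries was run. Promoters came from RefSeq GRCr8, and gene lengths were not used here. Sums of marker lists other than those in the text are not reported here.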

Additional observations from a re-analysis of the deposited data

Results flagged for a closer look

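For S100a13 the model's effect differed between weeks, by a test of the difference itself. The log2 fold change was 0.62 at week 5 (HFpEF against control 5w) and -0.19 at week 9 (untreated against control 9w), a difference of -0.81 (edgeR adjusted p = 0.0190). All 3 untreated libraries lacked Eif2s3y counts, as did 2 of 3 HFpEF libraries and none of the controls. The part of that in the difference was not tested beyond the model with a term for Eif2s3y, which gave -0.75 (edgeR adjusted p = 0.0431). That term rests on HFpEF 2 against HFpEF 1 and 3, so it cannot decide this. Of the 22 alternatives for this difference, 4 lost the call. In the same comparison 4 of 5 red cell markers (median -3.57), 3 of 8 endothelial markers (-1.01), 2 of 3 mesothelium markers (-5.35) and 1 of 5 neutrophil markers (-0.083) fell. There 1 of 8 cardiomyocyte markers (1.55) and 1 of 6 smooth muscle and pericyte markers (-0.56) rose. The part of these lists in the S100a13 value was not tested.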

How the results depend on the processing

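The calls of 18 member values, over 294 alternatives, kept direction and side of the threshold in 237, lost the call in 56 and turned in 1. The last was S100a4 from control 5w to control 9w without control 5w 2 and 3 (0.13), with 1 control 5w library left. That omission and that of the 3 libraries with over 1000 Myl4 counts were chosen after seeing the data. With a term for Eif2s3y the number of members called was 1 in HFpEF against control 5w, 0 in EMPA + PFD against untreated and 3 in untreated against HFpEF. That term rests on HFpEF 2 against HFpEF 1 and 3, since no other group held libraries of both kinds. With the 2-fold rule it was 1 in HFpEF against control 5w, 1 in EMPA + PFD against untreated, 2 against control 9w and 0 for the difference between weeks. In limma it was 3 in untreated against control 9w, 5 from control 5w to control 9w, 6 in untreated against HFpEF, 3 for the difference between weeks and 1 for the drug interaction, and in DESeq2 it was 4 in untreated against HFpEF and 2 for the difference between weeks. With the replicate block it was 0 from control 5w to control 9w and 1 in EMPA + PFD against untreated. Whether replicate numbers pair samples is not known. For deviations from the group mean, r was over 0.1 in 11 of 52 pairs with a shared number, from -0.53 to 0.49. Such deviations sum to 0 within a group, which ties these r values together. Pairs with unlike numbers were not compared, so the values cannot decide this. With the compared groups alone EMPA + PFD against untreated had 0. Without the Myl4-high libraries the counts were 0 in EMPA + PFD against untreated, 2 against control 9w, 4 in untreated against HFpEF and 2 for the difference between weeks. Without control 5w 2 and 3 they were 0 from control 5w to control 9w and 2 for the difference between weeks (S100a1 and S100a10, not S100a13), and in HFpEF against control 5w S100a10 passed in place of S100a13. Leaving out 1 library gave 0 to 3 from control 5w to control 9w, 0 to 3 in EMPA + PFD against untreated, 2 to 4 against control 9w, 0 to 5 in untreated against HFpEF and 0 to 3 for the difference between weeks. A lone library left in EMPA, PFD, control 5w or control 9w is assumed to vary like the other groups. For the counts that changed, the cause was not tested. Mean CPM without TMM was 39.3 (PFD) and 35.3 (EMPA + PFD) for S100a1, 63.3 (PFD) for S100a6, 156 (HFpEF) and 40.9 (EMPA + PFD) for S100a11, and 30.5 (HFpEF) and 12.1 (EMPA + PFD) for S100a13. By Spearman rho, the top 3 genes shared with Pearson r were 1 each for S100a1, S100a4, S100a6 and S100a8 and 0 for S100a9. Upper quartile normalisation shifted the median of all genes by -0.112 in EMPA + PFD against HFpEF. Low counts limit S100a8, S100a9, S100a3 and S100a14, and groups of 2 limit the single drugs.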
